A study of Rattus norvegicus with 6 samples.

Results

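The immediate early transcription factors are 10 genes, Fos, Fosl1, Fosl2, Jun, Junb, Egr1, Egr2, Nr4a1, Atf3 and Myc, and they were read in cultured neonatal rat ovaries. They were chosen by name, and every probe set whose only gene symbol in the array annotation is 1 of these names was taken. That gave 15 of the 31042 probe sets on the array that are not controls, and 10 of the 14217 genes that have a probe set with a single symbol. Of the 15 probe sets, 9 passed a filter on low signals and were tested, and they stand for 7 of the 10 genes.

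NT3 ovaries were cultured for 48 h with recombinant human NT3 at 50 ng/ml, and the control ovaries received no factor over the same 48 h. NT3 is a neurotrophin, a secreted growth factor best known from the nervous system, and its main receptor is the kinase that Ntrk3 encodes. Both groups came from 4-day-old female Sprague-Dawley rats, and the ovaries were kept whole on floating filters in a DMEM and Ham's F-12 medium with bovine serum albumin, albumax, ascorbic acid, transferrin and antibiotics. Each group had 3 arrays, and each array held the RNA of 2 to 3 whole ovaries homogenised together, so all cell types of the organ were mixed. The series title concerns the passage of primordial follicles to the primary stage. For the genes described here the comparison asks whether their transcripts differed at the end of culture with NT3. No earlier time was sampled on these arrays.

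Immediate early genes are switched on within minutes of a growth factor, hormone or stress signal, from factors already present in the cell and without new protein synthesis. Kinase cascades reach their promoters mainly through the serum response factor with its ETS-family partners, which bind CArG boxes, and through CREB, which binds cyclic AMP response elements. The induced mRNAs are short-lived, and the pulse usually ends within hours through repressors and mRNA decay. In the adult ovary the luteinizing hormone surge is a well-known inducer of several of them in granulosa cells. Dissection and explant culture are also known to induce them in many tissues.

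The promoters of 4 members are shown as examples of the letters through which such signals are known to act. RefSeq on the GRCr8 assembly gave a window for 6 of the 10 members, from 250 bases before to 50 bases after the start site. The reference used here held no window for Fos, Jun, Atf3 and Myc, so the promoters of these genes were not read. In the sequences below, read 5′ to 3′ along the gene, capitals mark CArG boxes, the core of the cyclic AMP response element (TGACG on either strand) and the TATA box letters TATAAA. The windows are chr18:26736828-26737127 on the plus strand for Egr1, chr20:21054392-21054691 on the minus strand for Egr2, chr7:134259888-134260187 on the plus strand for Nr4a1 and chr19:40080876-40081175 on the plus strand for Junb.
Egr1: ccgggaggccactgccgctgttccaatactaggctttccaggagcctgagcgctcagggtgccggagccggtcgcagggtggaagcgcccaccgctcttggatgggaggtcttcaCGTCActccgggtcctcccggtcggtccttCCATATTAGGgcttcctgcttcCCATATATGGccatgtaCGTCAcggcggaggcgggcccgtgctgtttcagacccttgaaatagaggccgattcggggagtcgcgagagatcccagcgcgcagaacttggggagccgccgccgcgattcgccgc
Egr2: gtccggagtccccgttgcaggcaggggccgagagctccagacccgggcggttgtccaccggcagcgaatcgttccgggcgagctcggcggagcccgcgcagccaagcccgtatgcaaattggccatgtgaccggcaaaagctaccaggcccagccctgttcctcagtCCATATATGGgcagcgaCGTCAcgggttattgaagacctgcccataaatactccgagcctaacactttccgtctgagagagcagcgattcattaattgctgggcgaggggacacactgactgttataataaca
Nr4a1: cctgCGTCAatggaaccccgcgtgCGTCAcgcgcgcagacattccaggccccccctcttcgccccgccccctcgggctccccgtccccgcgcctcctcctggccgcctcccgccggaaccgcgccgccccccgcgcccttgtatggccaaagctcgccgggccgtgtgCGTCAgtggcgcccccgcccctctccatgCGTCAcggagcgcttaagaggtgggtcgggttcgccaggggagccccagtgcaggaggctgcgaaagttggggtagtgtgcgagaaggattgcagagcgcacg
Junb: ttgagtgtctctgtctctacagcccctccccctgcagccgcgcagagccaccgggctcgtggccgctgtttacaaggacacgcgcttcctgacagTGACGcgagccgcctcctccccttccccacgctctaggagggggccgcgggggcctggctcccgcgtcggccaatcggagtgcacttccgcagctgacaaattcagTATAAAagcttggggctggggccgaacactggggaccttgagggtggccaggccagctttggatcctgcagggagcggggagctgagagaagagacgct

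A CArG box occurred in 2 of the 6 member promoters, those of Egr1 and Egr2, and in 1.64% of all 33469 promoter windows of the same length. In both promoters a CArG box began 83 bases before the start site and a cyclic AMP response element core began 66 bases before it. Egr1 held a further CArG box 105 bases before the start. The core TGACG occurred in 5 of the 6 member promoters, all but that of Fosl2, and in 21.2% of all windows. It stood 4 times in the Nr4a1 window, and the full element TGACGTCA, which contains it, occurred in 0 of the 6 and in 1.83% of all windows. TATAAA was found in the Junb window, 49 bases before the start, and in 14.2% of all windows.

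The site that AP-1 itself binds, TGANTCA, occurred in 0 of the 6 member windows and in 7.33% of all windows. The EGR site GCGNGGGCG occurred in 2 of the 6, those of Fosl2 and Nr4a1, against 4.98% of all windows, and in both it overlapped an Sp1 match (GGGCGG). The Sp1 letters alone occurred in 4 of the 6 member windows and in 33.1% of all windows. The ETS core CCGGAA occurred in 2 of the 6, those of Egr2 and Nr4a1, and in 15.0% of all windows. The NR4A site AAAGGTCA occurred in 0 of the 6 and in 1.43% of all windows, and the E-box CACGTG, read by MYC, in 0 of the 6 and in 6.42%. All letters were searched on both strands. They are matches of letters, and binding was not measured here.

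**Figure D1:**
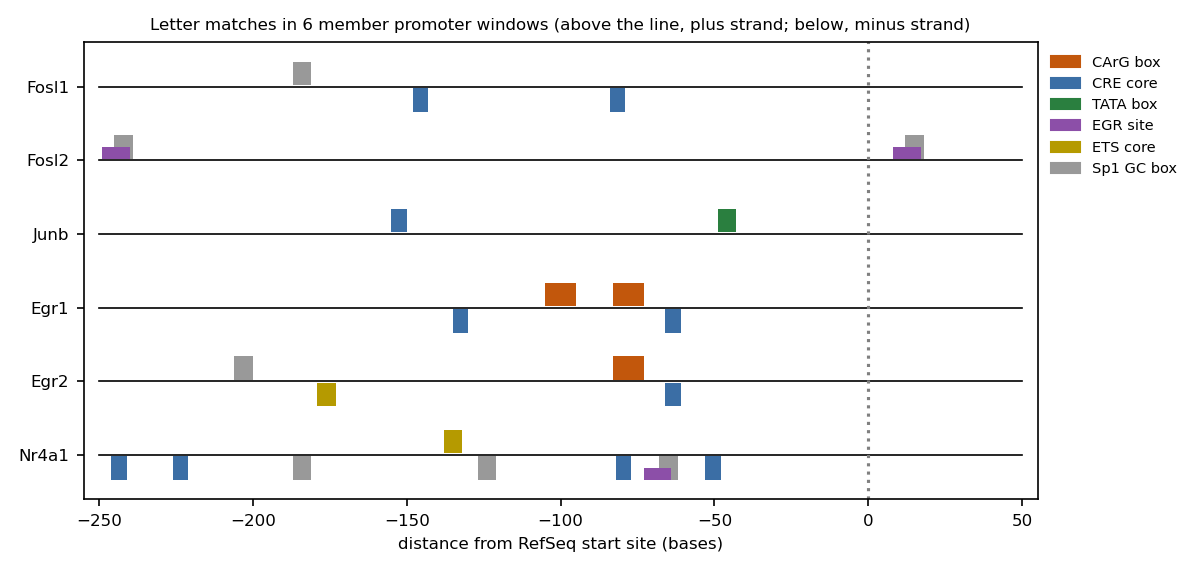
Letter matches in the 6 RefSeq member promoters, drawn by distance in bases from the start site, with matches on the plus strand of the gene above each line and matches on the minus strand below it. The CArG box and the cyclic AMP response element core stand at the same distances, 83 and 66 bases before the start, in Egr1 and Egr2.

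The 6 arrays shared 1 scale, with a trimmed mean signal of 210.1 on each and medians from 69.1 to 74.5 on NT3 arrays and from 71.2 to 75.0 on control arrays. Control replicate 2 stood apart in RNA quality. Its ratio of 3′ to 5′ signal for beta-actin, which grows when RNA is degraded, was 6.83, whereas the ratio was 2.78 to 2.91 on the NT3 arrays and 2.42 and 2.60 on the other control arrays. Ovary markers were present on every array, with signals of 925.7 to 1687.3 with NT3 and 1150.2 to 1823.9 in control for the oocyte growth factor gene Gdf9, and of 483.5 to 766.5 with NT3 and 478.8 to 621.9 in control for the granulosa factor gene Foxl2. Whether the replicates, which the labels name biological, stem from different animals or litters is not stated, so the p-values cover the spread among these samples alone, and 3 arrays a group limit the precision of every value. Signals of different probe sets are not compared as levels, because probe sets differ in their response to the same amount of transcript.

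None of the 9 tested member probe sets differed between NT3 and control ovaries by limma with Benjamini-Hochberg adjustment over all 18625 probe sets tested, and the share called over all of these was 0%. The adjusted p was 1.00 for each member. At an unadjusted p under 0.05 the count was again 0 of 9, against 1.29% of all tested probe sets. With evenly spread p-values that share would equal the threshold of 0.05, so the p-values of this fit ran high. The share was 2.15% with replicate number added to the fit and 3.52% without control replicate 2. The reason was not tested. The NT3 and control arrays overlapped in all 15 member probe sets. Among the 9 tested ones 0 lacked overlap, beside 5.83% of all tested probe sets. With 9 probe sets, a count of 0 cannot be told from such shares. Signals in whole-organ RNA cannot tell fewer cells of a type from less RNA per cell. The members are described below in the order of the families of proteins they encode, with differences given as NT3 minus control on the log2 scale.

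Fos encodes the founding subunit of AP-1, a dimer of FOS-family and JUN-family proteins. Its tested probe set, 1375043_at, gave signals of 185.2, 157.2 and 173.4 in NT3 replicates 1 to 3, against 170.4, 110.9 and 160.5 in control replicates 1 to 3. The lowest array was control replicate 2, and the highest NT3 array lay above every control array while the groups overlapped. The means were 172 ± 14.1 with NT3 and 147 ± 31.9 in control (SD, n = 3 each), a log2 difference of 0.25 ± 0.19 (SE) with an unadjusted limma p of 0.233. The 95% interval ran from 0.877-fold to 1.60-fold. Without control replicate 2 the log2 difference was 0.05. A second Fos probe set, 1371283_at, lay below the filter, with signals of 1.1 to 9.5 with NT3 and 2.4 to 17.1 in control.

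Fosl1 and Fosl2 encode the FOS-related subunits FRA1 and FRA2, which lack the strong activation domain of FOS and appear later after a stimulus. Fosl1 was below the filter, with 34.0, 30.3 and 26.7 in NT3 ovaries, against 33.7, 18.0 and 33.1 in control ovaries. Apart from the low control replicate 2, the Fosl1 signals of both groups lay in the same range. Fosl2 had 43.6, 37.1 and 65.6 on probe set 1383860_at in NT3 ovaries, against 36.2, 42.4 and 20.5 in control ovaries. NT3 replicate 3 was the highest and control replicate 3 the lowest array, and the other arrays of the groups overlapped. The log2 difference was 0.58 for that probe set, whose mean lay below the filter. With no filter its unadjusted limma p was 0.155. On the other Fosl2 probe set, 1387530_a_at, the signals were 24.8 to 32.9 with NT3 and 17.3 to 38.7 in control, also below the filter.

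Jun encodes the main partner of FOS in AP-1, and its 3 tested probe sets did not behave alike. Probe set 1389528_s_at gave 615.7, 755.4 and 642.5 with NT3, against 613.2, 538.8 and 747.0 in control. Control replicates 1 and 2 lay below every NT3 array, while control replicate 3 lay above NT3 replicates 1 and 3, so the groups overlapped. The means were 671 ± 74.1 with NT3 and 633 ± 106 in control (SD, n = 3 each), and the log2 difference was 0.09 ± 0.14 (SE), with an unadjusted limma p of 0.540 and a 95% interval of 0.850-fold to 1.34-fold. Without control replicate 2 it was -0.02.

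Probe set 1369788_s_at of Jun gave 453.4, 593.7 and 528.5 with NT3, against 537.7, 618.3 and 549.1 in control. Here replicate 2 was the highest array of both groups, so control replicate 2 was high where it was low on the probe set before. The log2 difference was -0.12 ± 0.13 (SE), with an unadjusted limma p of 0.379 and a 95% interval of 0.751-fold to 1.13-fold. The third probe set, 1374404_at, gave 168.6, 205.1 and 193.1 with NT3, against 213.8, 146.5 and 203.3 in control. Its log2 difference was 0.02 ± 0.18 (SE) with an unadjusted limma p of 0.902, and -0.15 without control replicate 2 and -0.04 without NT3 replicate 2. Across the 6 arrays 1369788_s_at correlated with 1374404_at at -0.08 and with 1389528_s_at at 0.02, and without control replicate 2 at 0.86 and 0.72. The pair 1389528_s_at and 1374404_at went the other way, at 0.73 with that array and 0.40 without it. The part of that array's RNA quality in these values was not tested.

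Junb encodes a JUN-family subunit that can replace JUN in AP-1 and often restrains it. It gave 85.0, 83.3 and 57.7 with NT3, against 90.2, 94.1 and 70.4 in control. Replicate 3 was the lowest array of each group, and the groups overlapped. The means were 75.3 ± 15.3 with NT3 and 84.9 ± 12.7 in control (SD, n = 3 each), a log2 difference of -0.18 ± 0.23 (SE) with an unadjusted limma p of 0.440. The 95% interval ran from 0.618-fold to 1.26-fold. The log2 difference was -0.0014 without NT3 replicate 3 and -0.31 without control replicate 3.

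Egr1 and Egr2 encode zinc finger proteins that bind GC-rich sites, and EGR2 is best known from Schwann cells and the hindbrain. Egr1 gave 560.3, 786.8 and 675.1 with NT3, against 651.4, 864.2 and 610.9 in control. Replicate 2 was the highest array of both groups, and the groups overlapped. The means were 674 ± 113 with NT3 and 709 ± 136 in control (SD, n = 3 each), a log2 difference of -0.07 ± 0.17 (SE), with an unadjusted limma p of 0.689 and a 95% interval of 0.732-fold to 1.24-fold. Its sign was not settled, since the log2 difference was 0.08 without control replicate 2 and 0.06 without NT3 replicate 1.

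Egr2 on probe set 1387306_a_at gave 65.9, 66.2 and 42.0 with NT3, against 58.1, 72.9 and 66.8 in control. NT3 replicate 3 was the lowest array, and the other NT3 arrays lay within the control range. The log2 difference was -0.21 ± 0.25 (SE), with an unadjusted limma p of 0.417 and a 95% interval of 0.589-fold to 1.27-fold. Without NT3 replicate 3 it was 0.01. The other Egr2 probe set, 1398266_a_at, was below the filter, with signals of 2.0 to 18.1 with NT3 and 1.8 to 14.6 in control, and on it replicate 1 was the highest array of each group.

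Nr4a1 encodes the orphan nuclear receptor NUR77, which works without a known natural ligand and regulates steroidogenic genes in gonads. It was below the filter, with 34.5, 39.7 and 30.2 with NT3, against 49.0, 33.6 and 25.4 in control. The NT3 arrays lay inside the range of the control arrays, which spread more widely. The means were 34.8 ± 4.76 with NT3 and 36.0 ± 12.0 in control (SD, n = 3 each).

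Atf3 encodes a stress-induced protein of the ATF and CREB family that represses many promoters when it binds as a homodimer. It gave 35.6, 38.3 and 49.7 with NT3, against 62.9, 59.3 and 40.4 in control. Control replicates 1 and 2 lay above every NT3 array, while control replicate 3 lay below NT3 replicate 3. The means were 41.2 ± 7.48 with NT3 and 54.2 ± 12.1 in control (SD, n = 3 each), a log2 difference of -0.38 ± 0.27 (SE) with an unadjusted limma p of 0.181. The 95% interval ran from 0.505-fold to 1.16-fold, and the log2 difference lay between -0.58 and -0.26 when single arrays were left out. That p was the smallest of the tested members, but the NT3 mean lay under the filter at 41.3, so the probe set was tested only through its higher control signals, and the SE of 0.27 stood beside a median SE of 0.18 over all tested probe sets.

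Myc encodes a basic helix-loop-helix protein that drives growth and ribosome production genes. It gave 66.1, 89.2 and 82.5 with NT3, against 69.6, 63.1 and 82.4 in control. The groups overlapped, with replicate 3 nearly equal in both and control replicate 2 the lowest array. The means were 79.3 ± 11.9 with NT3 and 71.7 ± 9.82 in control (SD, n = 3 each), a log2 difference of 0.14 ± 0.21 (SE), with an unadjusted limma p of 0.511 and a 95% interval of 0.796-fold to 1.53-fold. The log2 difference was 0.27 without NT3 replicate 1, 0.25 without control replicate 3, and 0.05 without replicate 2 of either group.

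**Figure D2:**
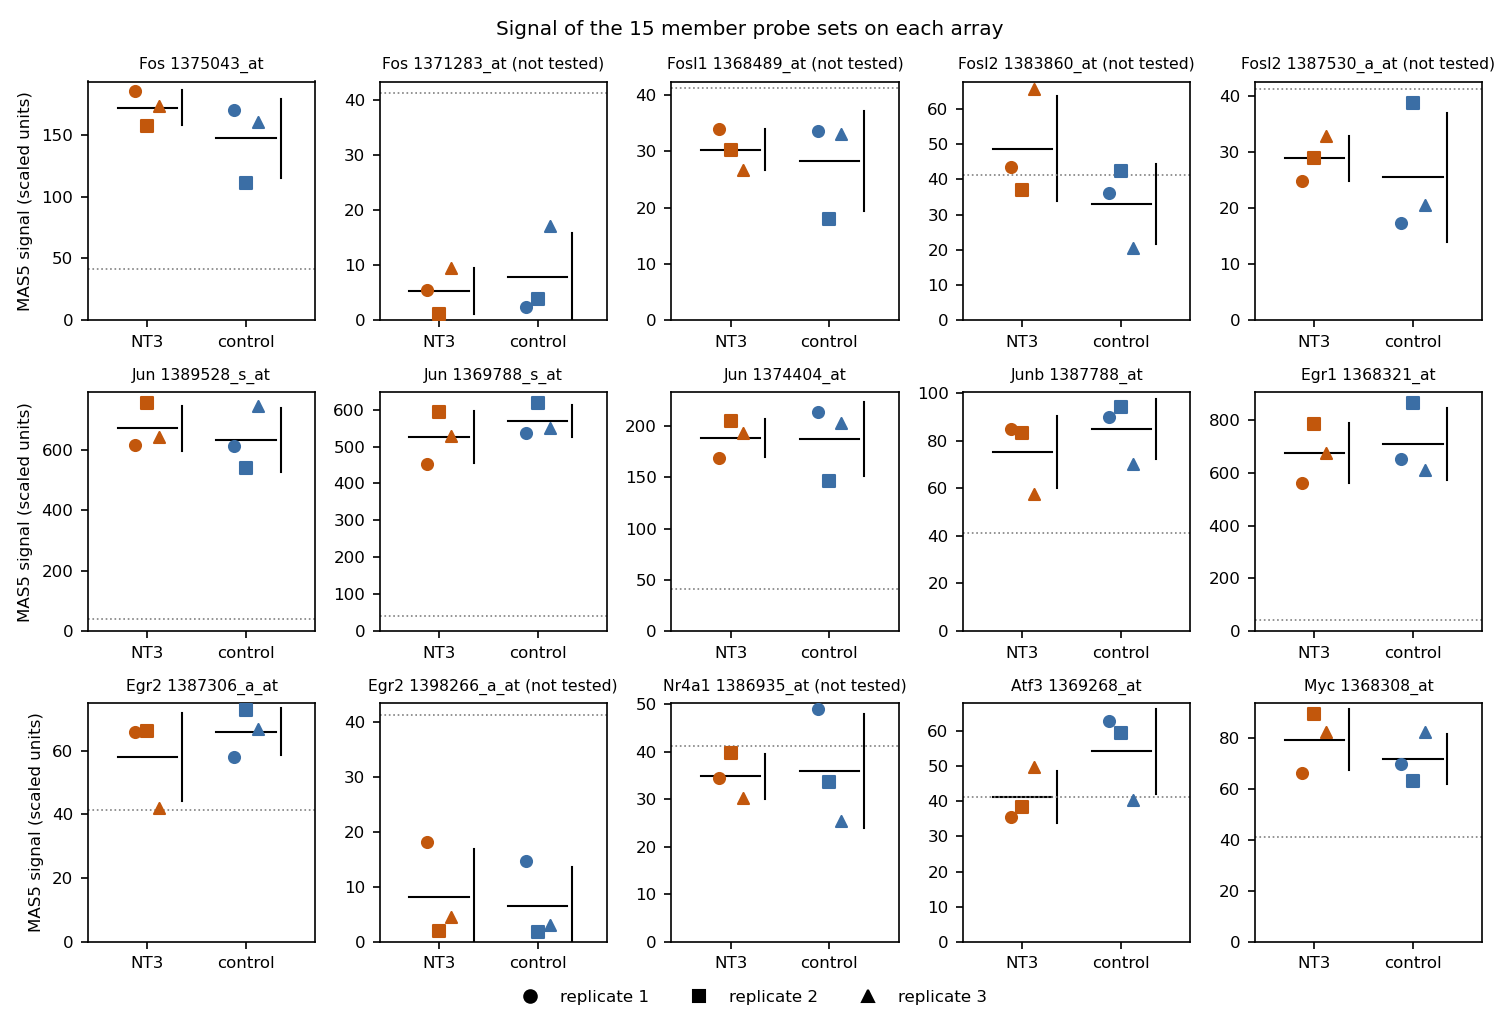
Signal of each member probe set on each array on a linear axis from 0, with NT3 arrays left of control arrays, horizontal lines at the group means, bars of 1 SD to either side (n = 3 each, cut off at 0) and a dotted line at the filter signal of 41.3. The groups overlap in all 15 probe sets, and control replicate 2 is the highest or lowest array in 8 of the 9 tested ones.

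Over the 9 tested member probe sets, 4 were higher and 5 lower with NT3, with a median log2 difference of -0.07, beside 0.00 over all 18625 tested probe sets. The median size of the difference, whatever its sign, was 0.14 for the members and 0.10 for all tested probe sets. The median SE was 0.19 for the members and 0.18 for all. The 95% intervals of the members together spanned 0.505-fold to 1.60-fold, and a true difference within its own interval could not be told from 0 for any of them. With 1 probe set a gene, the median over the 7 tested member genes was -0.07, and it was 0.06 without NT3 replicate 1 and 0.01 without NT3 replicate 3.

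**Figure D3:**
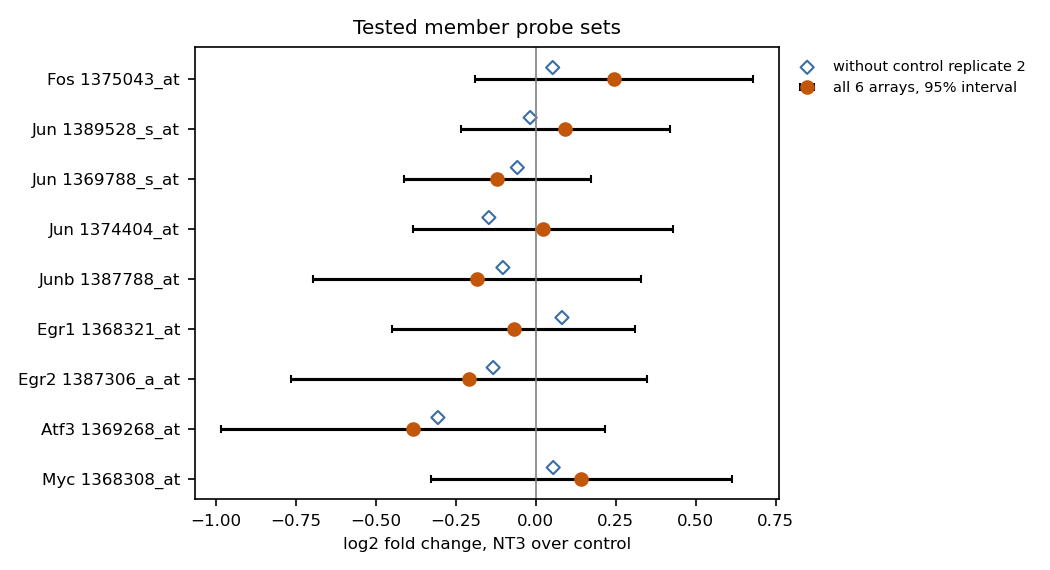
Log2 difference of NT3 minus control for the 9 tested member probe sets, as dots with the 95% limma interval, and as open diamonds without control replicate 2. Every interval includes 0, and leaving out control replicate 2 moves Fos from 0.25 to 0.05 and turns the sign of Egr1 and of the Jun probe sets 1389528_s_at and 1374404_at.

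Control replicate 2 was the highest array for 4 and the lowest for 4 of the 9 tested member probe sets. Over all tested probe sets it was the highest in 31.4% and the lowest in 27.5%, which is 58.9% together. The same array had the beta-actin ratio of 6.83, and the part of RNA quality in the members' values was not tested.

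The members did not move as 1 group over the 6 arrays. Of the 36 pairs of tested member probe sets, 18 had a Pearson r above 0, with a median of -0.02 and a range from -0.83 to 0.90. The highest was between Egr1 and the Jun probe set 1369788_s_at, at 0.90, and it was 0.86 without control replicate 2. The lowest was between Egr1 and Fos, at -0.83, and -0.71 without that array. Jun probe set 1389528_s_at and Myc correlated at 0.90, and Junb and Egr2 at 0.78. All pairs share the same 6 arrays, their scaling and the RNA quality of control replicate 2, so these values only describe the arrays.

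**Figure D4:**
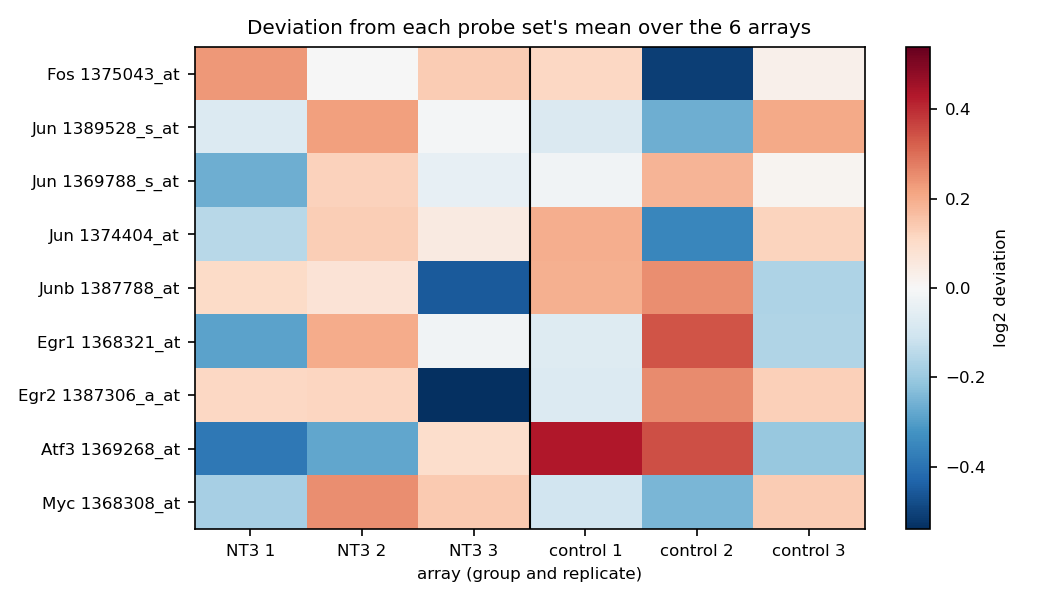
Deviation of each tested member probe set from its mean over the 6 arrays, in log2 units, in red where above and blue where below it, with NT3 arrays left of control arrays. Fos is lowest where Egr1 is highest, on control replicate 2, and no array stands high or low in all members.

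The 5 genes whose log2 signals over the 6 arrays were most like the mean deviation of the 7 tested member genes were LOC102547113 with an r of 0.99, Miip with 0.98, Spg7 with 0.98, B4galt1 with 0.97 and Cyth1 with 0.95. The members themselves correlated with that mean at -0.39 for Fos, 0.19 for Jun, 0.65 for Junb, 0.54 for Egr1, 0.54 for Egr2, 0.25 for Atf3 and 0.10 for Myc. Each member is itself a part of that mean, which raises its r. Fos had the only negative r, and Myc, Jun and Atf3 had the lowest positive ones. The 5 genes were picked as the highest r among all tested genes over only 6 arrays. LOC102547113 varied little, from 251.0 to 267.3. Whether any of the 5 shares regulation with the members was not tested.

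The relatives of the members in the AP-1, EGR, NR4A, ATF and MYC families were read from a list of 27 genes, of which 19 were tested. None was called, where 0% of all 10600 tested genes were called with 1 probe set a gene, and none had an unadjusted p under 0.05, where 1.17% of all tested genes did. The list had 14 genes higher and 5 lower with NT3, where 47.4% of all tested genes were higher. Its median log2 difference was 0.10, and 0.00 without control replicate 2. Mycn, a MYC-family gene best known from embryonic tissue and neuroblastoma, had the smallest p of the list, with 273.7, 305.6 and 211.4 with NT3 and 244.8, 139.8 and 223.3 in control. Its low control value came from control replicate 2, and its log2 difference was 0.40 ± 0.23 (SE), or 0.16 without that array.

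Jund, the JUN-family gene that most tissues express steadily, gave 2438.1, 2659.1 and 2295.6 with NT3 and 2091.1, 2206.7 and 2342.9 in control. Its groups overlapped, and its log2 difference of 0.15 ± 0.10 (SE) had an unadjusted limma p of 0.152. Mafg, a small MAF partner of AP-1 and NRF proteins, differed by -0.21 ± 0.18. The NR4A genes Nr4a2 and Nr4a3 differed by 0.05 ± 0.21 and 0.11 ± 0.27 on the log2 scale, and Mycl by 0.10 ± 0.19. Leaving out 1 array turned the sign of these 3, at 0.00 for Nr4a2 without control replicate 2, -0.10 for Nr4a3 without NT3 replicate 3 and -0.06 for Mycl without NT3 replicate 2. Fosb, Egr3 and Egr4 were below the filter, with signals of 2.3 to 9.5, 7.4 to 38.0 and 12.5 to 34.1 with NT3 and of 5.2 to 16.2, 26.1 to 30.5 and 19.4 to 28.2 in control.

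Other immediate early response genes, 36 tested of a list of 46, had 15 higher and 21 lower with NT3 and 0 called. Among them 1 had an unadjusted limma p under 0.05, where 1.17% of all tested genes did. The groups did not overlap for 3 genes, where 5.74% of all tested genes did not overlap. Per1, a clock gene with cyclic AMP response elements, gave 43.1, 43.4 and 24.7 with NT3, against 64.9, 65.2 and 55.2 in control. All 3 NT3 arrays lay under the lowest control array, and the log2 difference was -0.78 ± 0.28 (SE), with an unadjusted limma p of 0.0210 and an adjusted p of 1.00. The NT3 mean of 37.1 lay under the filter, so Per1 was tested only through its control signals. Phlda1 gave 70.0, 72.0 and 71.5 with NT3, against 53.0, 57.8 and 54.2 in control, also without overlap. Its log2 difference was 0.37 ± 0.19 with an unadjusted limma p of 0.0779. The other gene without overlap was Gadd45g, a growth arrest gene named here after its values were seen, at -0.24 ± 0.16. Ptgs2, which encodes the prostaglandin synthase induced at ovulation, differed by 0.48 ± 0.27, and by 0.25 without control replicate 2. Ier2 differed by 0.05 ± 0.22, but by -0.08 without NT3 replicate 1, -0.03 without NT3 replicate 3 and -0.08 without control replicate 3.

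Regulators upstream of the members' promoters, 21 tested of a list of 28, had 12 higher and 9 lower, with 0 called. Among them 1 had an unadjusted limma p under 0.05, where 1.17% of all tested genes did. That gene was Crtc2, a coactivator of CREB, with 115.0, 105.6 and 81.6 with NT3, against 145.9, 193.0 and 113.7 in control. The groups overlapped by 1 pair of arrays, and the log2 difference was -0.56 ± 0.23 (SE) with an unadjusted limma p of 0.0368. It was -0.37 without control replicate 2. Srf, which encodes the factor that binds CArG boxes, differed by -0.12 ± 0.14. Elk1, its ETS-family partner, differed by 0.00 ± 0.23, and by -0.10 to -0.08 without any 1 of NT3 replicates 1 and 2 and control replicates 1 and 3, but by 0.19 without NT3 replicate 3 and 0.18 without control replicate 2. The kinase genes Rps6ka5 and Rps6ka2 differed by 0.35 ± 0.22 and 0.28 ± 0.26. Rps6ka5 was at 0.16 without NT3 replicate 2, and Rps6ka2 at 0.19, 0.56 and 0.11 without control replicates 1, 2 and 3.

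Repressors and turnover factors of the members, 14 tested of a list of 20, had 7 higher and 7 lower, with 0 called and 0 with an unadjusted p under 0.05. Fbxw7, which marks JUN and MYC for degradation, gave 113.3, 102.7 and 115.1 with NT3, against 87.6, 89.6 and 93.5 in control. Its groups did not overlap, where 5.74% of all tested genes did not overlap. The log2 difference was 0.29 ± 0.16 with an unadjusted limma p of 0.107. Nab2, a corepressor of EGR proteins, differed by 0.04 ± 0.15 but by -0.01 without NT3 replicate 1 and -0.02 without control replicate 3. Dusp1, a phosphatase that ends MAP kinase signals, differed by -0.03 ± 0.16, but by 0.08 without NT3 replicate 2, 0.02 without NT3 replicate 3 and 0.0039 without control replicate 1. Zfp36, which promotes decay of AU-rich mRNAs, differed by -0.05 ± 0.25, but by 0.04 and 0.06 without NT3 replicates 1 and 3, and by 0.01 and 0.11 without control replicates 1 and 3. The inhibitors of helix-loop-helix proteins Id1 and Id2 differed by -0.10 ± 0.12 and 0.11 ± 0.10, and Id1 by 0.02 without control replicate 2. Dusp1 and Id2 each had another tested probe set with the opposite sign.

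The textbook targets of the members were read in 3 lists, which were chosen with earlier results of these data known. Of all tested genes, 47.4% were higher with NT3, 1.17% had an unadjusted limma p under 0.05 and 5.74% had groups that did not overlap. Of 18 tested AP-1 targets, 13 were higher and 5 lower with NT3, with a median log2 difference of 0.10, 0 called and 2 with an unadjusted p under 0.05. The median was 0.20 without NT3 replicate 3 and 0.05 without NT3 replicate 2. Plaur, the urokinase receptor gene, gave 88.2, 55.2 and 54.2 with NT3, against 24.3, 26.4 and 50.8 in control. All 3 NT3 arrays lay over the highest control array, and the log2 difference was 1.01 ± 0.34 (SE) with an unadjusted limma p of 0.0169 and an adjusted p of 1.00. The control mean of 33.8 lay under the filter, so Plaur was tested only through its NT3 signals. Mmp3, which encodes stromelysin 1, gave 78.2, 77.9 and 62.7 with NT3, against 41.8, 65.9 and 42.7 in control. Its groups overlapped, and the log2 difference was 0.57 ± 0.25 with an unadjusted limma p of 0.0476.

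Of 14 tested EGR1 and NR4A1 targets, 9 were higher and 5 lower, with a median of 0.03, 0 called and 1 with an unadjusted p under 0.05. That was the phosphatase gene Ptpn1, with 93.7, 73.3 and 75.6 with NT3, against 104.5, 117.6 and 109.2 in control. Its groups did not overlap, and the log2 difference was -0.46 ± 0.18 with an unadjusted limma p of 0.0315. Lhcgr, the luteinizing hormone receptor gene, differed by -0.46 ± 0.28, and by -0.23 without NT3 replicate 1, and its NT3 mean of 37.7 lay under the filter. Pdgfa differed by 0.23 ± 0.16, and by 0.37 without control replicate 2, 0.15 without NT3 replicate 2 and 0.14 without control replicate 3. The median of these targets was -0.06 without NT3 replicate 1 and -0.0012 without control replicate 2.

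Of 27 tested MYC targets, 10 were higher and 17 lower, with a median of -0.05, 0 called and 0 with an unadjusted p under 0.05. The smallest p values belonged to Cdc25a, Polr1b and Bop1, a cell cycle phosphatase gene and 2 genes of ribosome production, at log2 differences of -0.24 ± 0.16, -0.22 ± 0.17 and -0.25 ± 0.20. Bop1 was at -0.44 without control replicate 1 and -0.11 without control replicate 2. The groups overlapped for each.

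**Figure D5:**
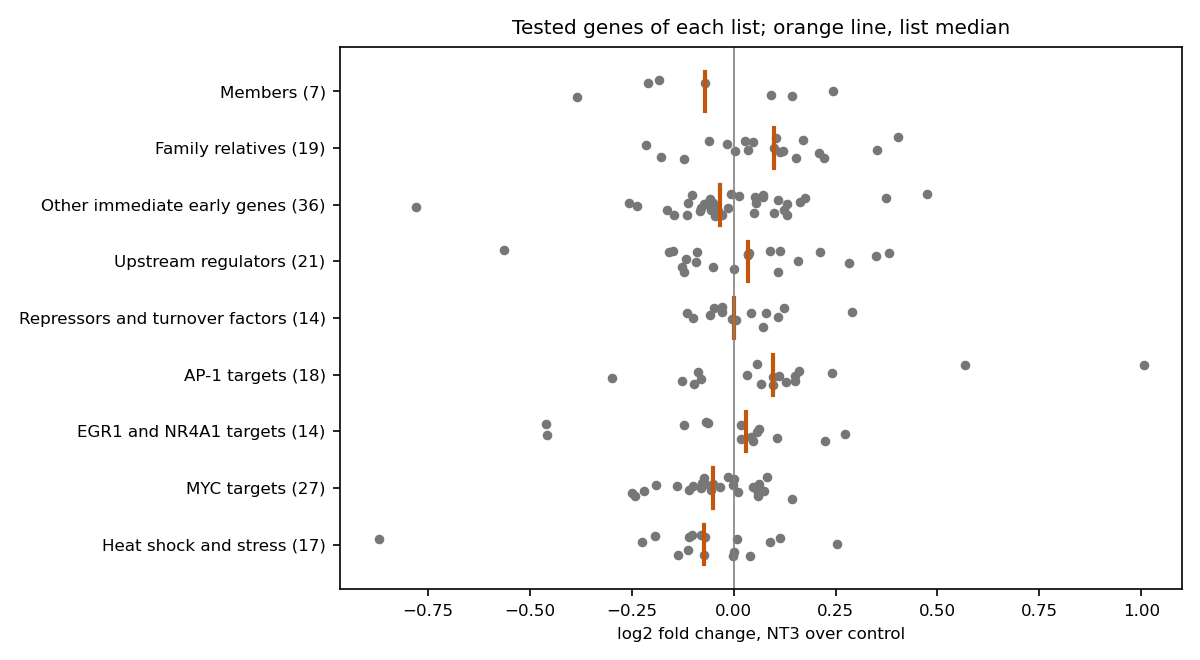
Log2 difference of NT3 minus control for every tested gene of the members and 8 other lists, 1 dot and 1 probe set a gene, with the orange line at the list's median. The medians lie between -0.07 for heat shock and stress genes and 0.10 for family relatives (0.00 without control replicate 2), and 0 genes were called in each list.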

How the data were processed

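RNA of 3 NT3 and 3 control samples was hybridised to 1-colour Affymetrix arrays as biotin-labelled cRNA, per the labels' protocols. The deposited values are linear intensities, 1 for each probe set on each array, made by the authors with MAS5 per the submitters' processing notes, with a version not given in the sources used here. A scaled intensity hides a change in total RNA. Detection calls were not used.

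Titles gave each sample's group and replicate number. From 31099 probe sets, 57 controls were left out. Signals went to log2 with a floor of 0.1 for 5 probe sets and no further scaling. Probe sets under the 40th percentile of mean log2 signal (5.37, or 41.3 on the linear scale) were dropped, leaving 18625. NT3 was compared with control by limma 3.58.1 in R 4.3.3 (lmFit, eBayes with intensity trend, 2-sided, Benjamini-Hochberg at 0.05), tested on simulated data. Unadjusted p-values are descriptions. Adjusted p-values run over all tested probe sets.

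In the array annotation 20826 probe sets had 1 symbol, 436 several and 9780 none. RefSeq held 20758 of the matched identifiers, and 0 symbols changed. Lists used 1 probe set a gene, that of highest mean signal. Promoters came from RefSeq (GRCr8). From each of 15 other lists up to 3 tested genes with the lowest p were named, with 5 genes most alike in pattern and a fixed set of relatives and regulators. The members and lists were chosen with earlier results of these data known.

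Deviations from group means correlated at 0.230, 0.247 and 0.222 for equal replicate numbers and at most at 0.029 for unequal ones. The labels state no pairing, and these values alone do not establish one. Since the deviations within each group sum to 0, the values are not independent of each other, but that does not fix their signs. All SEs, intervals and p-values given nevertheless come from the fit without a block, and the replicate block was an alternative, as were quantile normalization, median centring, other filters, an offset of 16, no trend, array weights and each array left out.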

Additional observations from a re-analysis of the deposited data

How the results depend on the processing

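No member probe set was called under any of the 15 alternatives, and the lowest unadjusted limma p of a member was 0.0690 (Atf3 without control replicate 3). Of 131 alternative values of the 9 tested member probe sets, 120 kept their direction. With the replicate block the count of all probe sets with an unadjusted p under 0.05 was 401, against 240 without it, and the block called 0 probe sets and changed no other call. That count was 585 with array weights, 123 with the filter at the 60th percentile, 752 with no filter and 377 with no trend. It ran from 176 to 656 with single arrays left out, at 656 with control replicate 2 left out and 420 with control replicate 3 left out. With the block and without control replicate 2 it was 962, and 4 probe sets were called, on 2 pairs of arrays, with NT3 replicate 2 unpaired. They were Hnrnpa2b1, at -0.65 there but 0.09 with all arrays and no block, and 3 probe sets with no symbol, named after their values were seen. Single arrays left out gave -0.018 to 0.22 for Jun 1389528_s_at, -0.15 to 0.13 for Jun 1374404_at, -0.19 to 0.082 for Egr1 and -0.32 to 0.0088 for Egr2. With array weights the Jun probe sets were at -0.0030 and -0.14, and with the block and without control replicate 2 at -0.11 and -0.21, where Myc was at -0.036. The cause was not tested. Of 112 list medians under other settings, 105 were counted as the same and 7 as moved, a count that does not track sign. The upstream regulators were at 0.03 but at -0.06 without control replicate 3. Other immediate early genes were at -0.03 but at 0.04 without NT3 replicate 3. Of the lists, only AP-1 targets, MYC targets, stress genes and macrophage markers kept their sign whichever single array was left out. Of 54 other named genes tested, 44 had a log2 difference that changed by a factor of over 1.5 with single arrays left out, and 14 turned sign. That factor compares log2 differences and is not a fold change in signal. With no filter, limma gave unadjusted p of 0.696 for Fosl1, 0.155 and 0.538 for Fosl2, 0.988 for Nr4a1, and 0.655 and 0.752 for the low Fos and Egr2 probe sets.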

Other observations

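Heat shock and explant stress genes, which often accompany immediate early genes in cultured tissue, had 6 higher and 11 lower of 17 tested with NT3, with a median log2 difference of -0.07 and 0 called by limma. Among them 1 gene had an unadjusted limma p under 0.05 and 1 had groups without overlap. Over all tested genes these shares were 1.17% and 5.74%, and 47.4% were higher. Hspa4, a chaperone gene of the HSP110 family, gave 205.6, 175.3 and 113.8 with NT3, against 353.1, 275.3 and 257.9 in control. All 3 NT3 arrays lay under the lowest control array, and the log2 difference was -0.87 ± 0.23 (SE), with an unadjusted limma p of 0.00418 and an adjusted p of 1.00. Dnajb1 and Txnrd1 differed by -0.14 ± 0.10 and -0.19 ± 0.12, and each had another tested probe set with the opposite sign.

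Cell type markers gave these values, with 0 genes called in each list and no gene at 0. Of all tested genes, 47.4% were higher with NT3 and 52.6% lower. An unadjusted limma p under 0.05 was found for 0 macrophage and 0 endothelial markers, where 1.17% of all tested genes had one. Macrophage and leukocyte markers were higher with NT3 in 13 of 16 tested genes, with a median of 0.14 and summed signals of 5572 to 6174 with NT3 and 5086 to 5800 in control. Endothelial markers were lower in 11 of 13, with a median of -0.09, or 0.06 without NT3 replicate 2. Oocyte markers were higher in 3 of 7 and granulosa markers in 4 of 10, with medians of -0.04 and -0.05, and these were -0.33 and -0.21 without control replicate 2 but 0.07 and 0.02 without NT3 replicate 2, and the granulosa median was 0.02 without control replicate 3. Epithelial markers were higher in 9 of 14, with a median of 0.11, or -0.03 without NT3 replicate 2. Cldn3, a tight junction gene with the smallest p of that list, gave 148.2, 142.6 and 86.2 with NT3, against 64.6, 67.9 and 61.7 in control. Its groups did not overlap, where 5.74% of all tested genes did not overlap. The log2 difference was 0.92 ± 0.24 (SE) with an unadjusted limma p of 0.00372, and Cldn3 was not called after adjustment. Smooth muscle markers were higher in 7 of 12 and neuron and Schwann cell markers in 5 of 9, with medians of 0.07 and 0.06. The smooth muscle median was -0.02 without NT3 replicate 1, and the neuron and Schwann cell median -0.11 without NT3 replicate 2 and -0.04 without control replicate 2. Their part in the members' values was not tested.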
